A study of Mus musculus with 16 samples.

Results

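The microRNAs miR-101a-3p and miR-101b-3p are near-identical small RNAs made from separate genes, Mir101a and Mir101b. They are the rows MIMAT0000133 and MIMAT0000616 of a table of 853 mature microRNAs, and both passed the filter on low counts that left 255 microRNAs for testing. The pair was chosen with earlier values of miR-101a-3p in compound-deficient cells in view, against their own wild type and against Xbp1-deficient cells. Values of both microRNAs in these 2 contrasts and in the difference of changes, which contains the first of them, are therefore given as a description, without a p-value, as are the ratio and the correlation of the pair.

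The counts come from small RNA libraries of cDC1s, conventional dendritic cells of type 1 that present engulfed antigen to CD8+ T cells, sorted from spleens of C57BL6 mice. There were 16 libraries in 4 groups of 4: cells of genotype Xbp1-Ire1 KO (compound-deficient), cells of genotype Xbp1 KO (Xbp1-deficient), the WT of the compound line and the WT of the Xbp1 line. IRE1 senses stress in the endoplasmic reticulum; its ribonuclease splices Xbp1 mRNA, which then encodes the transcription factor XBP1, and can cut other RNAs, so the design sets loss of XBP1 alone beside loss of both. The age of the mice, the driver of the deletions, and whether a replicate is 1 mouse or a pool have no entry in the labels, so the spread behind the p-values is that between samples and may be technical. A library held 175165 to 978134 counts in compound-deficient cells, 783372 to 1403393 in Xbp1-deficient cells, 332923 to 882108 in wild-type cells of the compound line and 400210 to 1103001 in those of the Xbp1 line. The table holds no messenger RNA and pairs no identifier with a name, so neither the deletions nor the cell type could be checked against marker genes here.

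A microRNA guides an Argonaute protein to messenger RNAs that pair with its seed, bases 2 to 8 from its 5′ end, and lowers their translation and stability. The miR-101 family is best known for repressing the mRNA of EZH2, the methyltransferase of the Polycomb repressive complex, in human tumours. In mouse immune cells it has been described to act on the mRNA of the costimulatory receptor ICOS in T cells and on that of the phosphatase MKP-1 (Dusp1) in macrophages. No target was measured in these libraries.

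The mature sequences are shown because their likeness decides how far the counts of the pair can be told apart. They are from RefSeq on GRCm38.p6, 5′ to 3′, with the annotated seed in capitals. The line for miR-101c, made from another mouse locus, is given for comparison.
miR-101a-3p: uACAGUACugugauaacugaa
miR-101b-3p: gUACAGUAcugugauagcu
miR-101c: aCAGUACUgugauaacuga
As annotated, miR-101b-3p starts 1 base earlier and the seeds are the same letters read 1 base apart. Laid on each other, 17 of 18 bases were the same, and the difference was A16G, counted from the 5′ end of miR-101a-3p. The annotated miR-101c is contained whole in miR-101a-3p, from base 2 to base 20. As annotated, with their unlike ends counted, the members lie 5 changes apart. Read from the same start and over the same length, the precursor of miR-101b-3p matches miR-101a-3p at 20 of 21 bases, again with A16G. The base before miR-101a-3p in its own precursor is G, as is the first base of miR-101b-3p. The shift of the seeds thus rests on the annotated ends, and the counts do not give the ends of the reads. Besides the members themselves, only miR-101c among 1738 mouse mature microRNAs in RefSeq lies within 3 changes of either. No other annotated microRNA has the seed of either. How reads matching several microRNAs were treated is not stated in the labels, so the members may share reads.

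The hairpin precursors differ far more than the mature arms. They are printed with the annotated 3p arm in capitals.
Mir101a: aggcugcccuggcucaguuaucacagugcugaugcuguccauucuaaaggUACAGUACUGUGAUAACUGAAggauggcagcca
Mir101b: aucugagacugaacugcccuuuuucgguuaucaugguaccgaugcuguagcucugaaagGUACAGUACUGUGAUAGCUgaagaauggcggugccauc
On GRCm38, with RefSeq and GENCODE annotation, Mir101a lies at chr4:101346945-101347027 on the minus strand and overlaps an exon of the long non-coding RNA gene E130102H24Rik on the same strand. Mir101b lies at chr19:29135279-29135375 on the plus strand, within an intron of Rcl1, which encodes a protein of ribosomal RNA processing. The letters CUGCAG, the core of the IRE1 cleavage site in the XBP1 mRNA and the same when read on the other strand, stand in neither hairpin and in 75 of the 1005 mouse hairpins in RefSeq (7.46%, with a median length of 79 bases over all hairpins).

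miR-101a-3p had higher counts than miR-101b-3p in every library, and its mean level was lowest in compound-deficient cells. Levels are CPM, counts set to a common library size, with library sizes scaled by the trimmed mean of M-values (TMM). In compound-deficient replicates 1 to 4 it stood at 1305, 1311, 1113 and 1807 CPM. In Xbp1-deficient replicates 1 to 4 it stood at 2210, 2403, 2147 and 2010 CPM. The deficient genotypes did not overlap. The compound-line wild type, replicates 1 to 4, held 1742, 2616, 2278 and 1874 CPM, and the Xbp1-line wild type, replicates 4, 5, 6 and 8, held 3141, 2776, 2617 and 2587 CPM. Thus all 4 compound-deficient libraries lay below all 4 Xbp1-deficient ones, as for 7.06% of the 255 microRNAs. All 4 Xbp1-deficient libraries lay below all 4 of their own wild type, as for 7.06% of the 255 microRNAs in that comparison. In the compound line the ranges overlapped, through replicate 4 of the deficient cells, which was above the lowest wild-type library. That library was also the shallowest of all 16, with 342 counts of miR-101a-3p against 472 to 1215 in the other compound-deficient libraries.

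The group means of miR-101a-3p were 1384 ± 297 CPM in compound-deficient cells, 2193 ± 163 CPM in Xbp1-deficient cells, 2128 ± 398 CPM in wild-type cells of the compound line and 2780 ± 255 CPM in wild-type cells of the Xbp1 line (SD, n = 4 each). In order of level, the compound-deficient cells were lowest, followed by the compound-line wild type, the Xbp1-deficient cells and the Xbp1-line wild type, and the ranges of the middle 2 groups overlapped. Among the 255 microRNAs, its mean level ranked 53rd in compound-deficient cells, 46th in Xbp1-deficient cells, 47th in wild-type cells of the compound line and 38th in wild-type cells of the Xbp1 line. In these bulk samples, fewer cells that hold a microRNA and less of it per cell cannot be told apart.

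miR-101b-3p stood lower, and its group means lay closer together. Compound-deficient replicates 1 to 4 held 721, 614, 580 and 587 CPM, and Xbp1-deficient replicates 1 to 4 held 731, 746, 688 and 606 CPM. The compound-line wild type, replicates 1 to 4, held 474, 642, 659 and 461 CPM, and the Xbp1-line wild type, replicates 4, 5, 6 and 8, held 824, 692, 688 and 702 CPM. The deficient ranges overlapped with those of their own wild type in both lines, and with each other. The means were 625 ± 65.3 CPM in compound-deficient cells, 692 ± 62.8 CPM in Xbp1-deficient cells, 559 ± 106 CPM in wild-type cells of the compound line and 727 ± 65.2 CPM in wild-type cells of the Xbp1 line (SD, n = 4 each). From low to high the order was compound-line wild type, compound-deficient, Xbp1-deficient and Xbp1-line wild type, and each group overlapped with its neighbour in that order. These levels rest on 111 to 671 counts per library in compound-deficient cells, 452 to 856 in Xbp1-deficient cells, 156 to 613 in wild-type cells of the compound line and 290 to 873 in wild-type cells of the Xbp1 line.

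**Figure D1:**
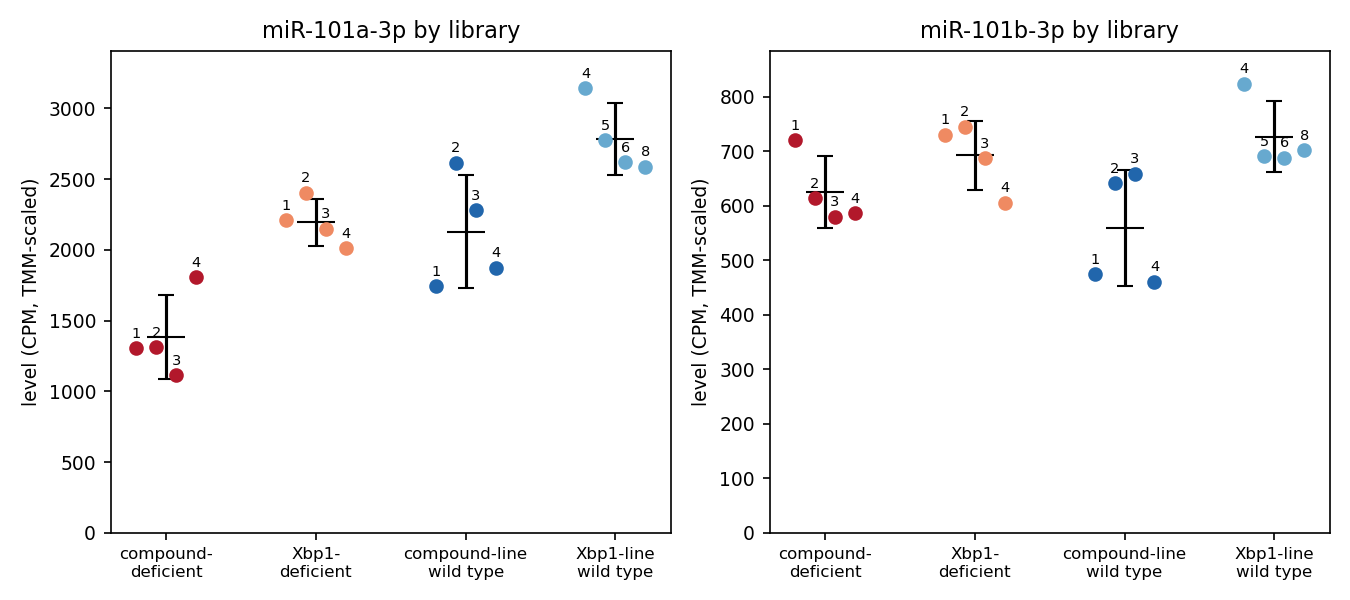
Level of miR-101a-3p (left) and miR-101b-3p (right) in CPM on TMM-scaled library sizes, for each library, numbered by replicate. Bars show the group mean and SD (n = 4). For miR-101a-3p the compound-deficient libraries sit between 1113 and 1807 CPM and the Xbp1-line wild type between 2587 and 3141 CPM, whereas for miR-101b-3p each deficient group overlaps with its wild type.

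The authors' deposited log2 values, which are log2 counts plus 1 scaling constant per library, put the groups of the pair in nearly the same order. For miR-101a-3p their means were 10.40 ± 0.31 in compound-deficient cells, 11.14 ± 0.14 in Xbp1-deficient cells, 11.03 ± 0.31 in wild-type cells of the compound line and 11.41 ± 0.13 in wild-type cells of the Xbp1 line (SD, n = 4 each). For miR-101b-3p they were 9.27 ± 0.14 in compound-deficient cells, 9.48 ± 0.16 in Xbp1-deficient cells, 9.11 ± 0.30 in wild-type cells of the compound line and 9.47 ± 0.12 in wild-type cells of the Xbp1 line (SD, n = 4 each), so that the 2 highest groups changed places.

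Against their own wild type, compound-deficient cells had less miR-101a-3p, at −0.63 on the log2 scale (SE 0.16, 95% interval −0.96 to −0.30, edgeR's quasi-likelihood fit of all 16 libraries). For miR-101b-3p the log2 fold change was 0.16 (SE 0.15, interval −0.16 to 0.48), and −0.12 with upper-quartile scaling, which moved the median of all microRNAs by −0.28. The median over all 255 microRNAs was 0.04. At an adjusted p under 0.05 this comparison called 15 microRNAs (5.88% of those tested), 6 of them lower (2.35%), and 1 of the pair, miR-101a-3p, was among them, which is the result the pair was chosen on. Because the pair was chosen on this value, neither keeping nor losing the call tests it, and both are given as a description. The call was lost without compound-deficient replicate 2, without compound-deficient replicate 3 or without wild-type replicate 2. The log2 fold change was then −0.67, −0.61 and −0.56. The call was also lost in a fit of these 8 libraries alone (−0.68) and with a replicate block (−0.67). With the counts of the pair summed as 1 row, the sum was not called (−0.42).

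Compound-deficient cells also had less miR-101a-3p than Xbp1-deficient cells, at −0.67 on the log2 scale (SE 0.16, with an interval of −0.998 to −0.34). For miR-101b-3p it was −0.14 (SE 0.15, interval −0.46 to 0.18; 0.045 with depth in the model), against a median of 0.13 over all microRNAs. This comparison includes any difference between the lines, and shares its compound-deficient libraries with the one above. It called 19 microRNAs (7.45%), 6 of them lower (2.35%), miR-101a-3p among them, again as the pair was chosen. These counts were unstable: 22 were lower with upper-quartile scaling, 1 with total counts alone, and none was called in edgeR without Xbp1-deficient replicate 2, where 45 had an unadjusted p under 0.05. The call of miR-101a-3p is again a description and no test, whether kept or lost, as the pair was chosen on it. That call was lost with total counts alone as scaling (−0.59), with library depth added to the model (−0.71) and in a fit of the 8 libraries (−0.67). It was also lost without compound-deficient replicate 2 (−0.73), compound-deficient replicate 3 (−0.67) or Xbp1-deficient replicate 2 (−0.68). miR-101b-3p passed as lower once each library was thinned to the depth of the shallowest (−0.42), which is likewise a description.

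In Xbp1-deficient cells neither member passed against the wild type of the line. miR-101a-3p gave −0.34 on the log2 scale (SE 0.15, interval −0.67 to −0.02, edgeR adjusted p = 0.289), and all 4 deficient libraries lay below the 4 wild-type ones. Of all 255 microRNAs, 7.06% had ranges that lay apart in this way, with the deficient cells lower, and 1.96% were called lower. miR-101b-3p gave −0.07 (SE 0.15, interval −0.39 to 0.25, edgeR adjusted p = 0.885), against a median of −0.07 over all microRNAs. Its sign turned with upper-quartile scaling (0.047), on the deposited log2 values (0.0048) and after thinning (0.19). The Xbp1-deficient libraries also enter the comparison with compound-deficient cells on which the pair was chosen.

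Between the wild types, both members stood lower in the compound line by about the same amount. The log2 difference was −0.38 (SE 0.16, interval −0.71 to −0.06) for miR-101a-3p and −0.37 (SE 0.15, interval −0.69 to −0.05) for miR-101b-3p, each at an edgeR adjusted p of 0.366. The wild-type libraries of the compound line also enter a contrast the pair was chosen on, so these values are not independent of the choice. For miR-101b-3p all 4 compound-line libraries lay below all 4 Xbp1-line ones, as did 1.96% of all microRNAs, whereas the ranges of miR-101a-3p overlapped. No microRNA passed between the wild types in edgeR (0.0%), where 24 had an unadjusted p under 0.05, while DESeq2 called 3 and limma voom 0.

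Whether the change in compound-deficient cells differed from that in Xbp1-deficient cells was estimated directly, on values that include those the pair was chosen on. The difference of the log2 fold changes was −0.28 (SE 0.22, interval −0.75 to 0.18) for miR-101a-3p and 0.23 (SE 0.22, interval −0.22 to 0.68) for miR-101b-3p. Neither of them was called. The intervals leave room for differences of either sign. Across all 255 microRNAs edgeR called 0 (0.0%) for this difference, with 26 at an unadjusted p under 0.05, and DESeq2 and limma voom called 0 as well.

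**Figure D2:**
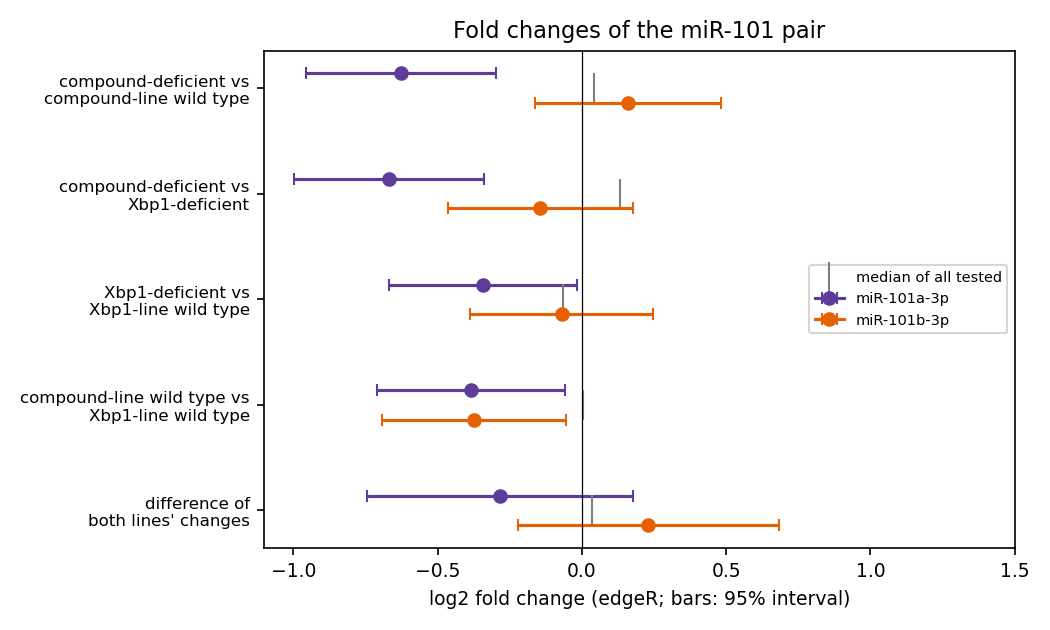
Log2 fold change of miR-101a-3p and miR-101b-3p in the 5 comparisons of edgeR's fit, the first-named group over the second, with 95% intervals, and the median over all 255 tested microRNAs as a grey tick. The members lie apart in the upper 2 comparisons, at −0.63 and 0.16 and at −0.67 and −0.14, and next to each other between the wild types, at −0.38 and −0.37.

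**Figure D3:**
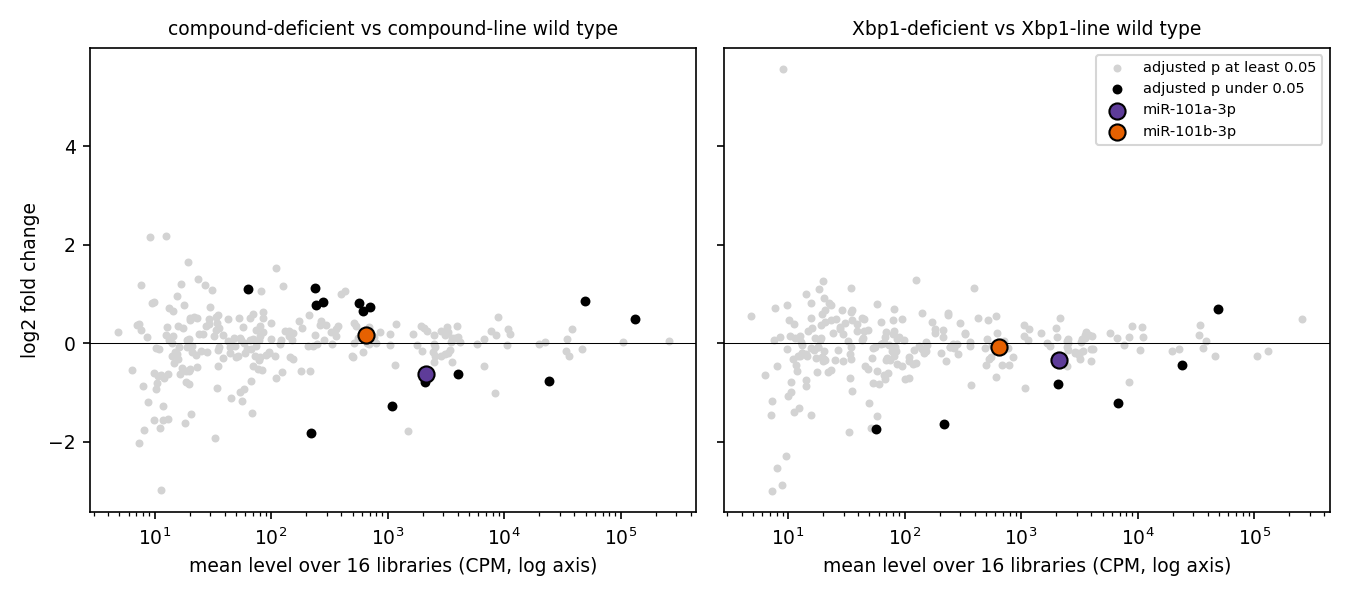
Log2 fold change against mean level over the 16 libraries (CPM, log axis) for the 255 tested microRNAs, in compound-deficient cells (left) and in Xbp1-deficient cells (right), each against the wild type of its line. Black points had an adjusted p under 0.05. miR-101a-3p lies at −0.63 and −0.34, and miR-101b-3p at 0.16 and −0.07, in these comparisons.

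The ratio of miR-101a-3p to miR-101b-3p needs no library scaling, so it sets the counts of the members side by side within each library. It is a ratio of reads, some of which the members may share. Whether both are captured equally well was not measured, so the ratio need not be that of the molecules. It was 1.81, 2.14, 1.92 and 3.08 in compound-deficient replicates 1 to 4, and 3.02, 3.22, 3.12 and 3.32 in Xbp1-deficient replicates 1 to 4. In wild-type cells it was 3.67, 4.08, 3.46 and 4.06 in replicates 1 to 4 of the compound line, and 3.81, 4.01, 3.80 and 3.68 in replicates 4, 5, 6 and 8 of the Xbp1 line. All 8 deficient libraries thus had a lower ratio than all 8 wild-type libraries. Within the compound line 6.69% of the other microRNAs, set over miR-101b-3p in the same way, had deficient ratios wholly below the wild-type ones, within the Xbp1 line 3.54% and between the wild types 0.0%. Of all 254, 5 had ratios that were lower in every deficient library than in every wild-type library (1.97%), miR-101a-3p among them.

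The mean ratio was 2.24 ± 0.579 in compound-deficient cells, 3.17 ± 0.127 in Xbp1-deficient cells, 3.82 ± 0.305 in wild-type cells of the compound line and 3.83 ± 0.137 in wild-type cells of the Xbp1 line (SD, n = 4 each). On the log2 scale compound-deficient cells differed from their wild type by −0.80 (SE 0.18). Xbp1-deficient cells differed from theirs by −0.27 (SE 0.04), and the wild types differed by −0.01 (SE 0.06). The change in compound-deficient cells differed from that in Xbp1-deficient cells by −0.53 (SE 0.19). This is a description, since it contains values the pair was chosen on. Compound-deficient and Xbp1-deficient cells differed by −0.54 (SE 0.17), with ranges that overlapped through compound-deficient replicate 4. Without that library, a choice made after the data were seen, the compound-deficient ratios were 1.81 to 2.14. The log2 difference from the wild type was then −0.97. That library alone made the ranges overlap and had the highest ratio of its group. Leaving it out had to separate the ranges and widen the difference, so both are a description and no test.

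Expressed as a share, miR-101a-3p took 64.4%, 68.1%, 65.7% and 75.5% of the pair's counts in compound-deficient replicates 1 to 4, with 95% Wilson intervals of 62.2% to 66.6%, 64.5% to 71.5%, 62.6% to 68.7% and 71.3% to 79.2%. The interval of replicate 4 does not overlap with those of replicates 1 and 3 and barely with that of replicate 2. In Xbp1-deficient cells the share was 75.1% to 76.8%, in wild-type cells of the compound line 77.6% to 80.3% and in wild-type cells of the Xbp1 line 78.6% to 80.1%. The intervals cover counting error only, and they treat each read as an independent molecule. Reads without molecular identifiers are not independent molecules, so the intervals may be too narrow to set replicate 4 apart. The upper limit of replicate 4 of the compound-deficient cells lies above the lowest wild-type shares, and the pair had 453 counts there.

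**Figure D4:**
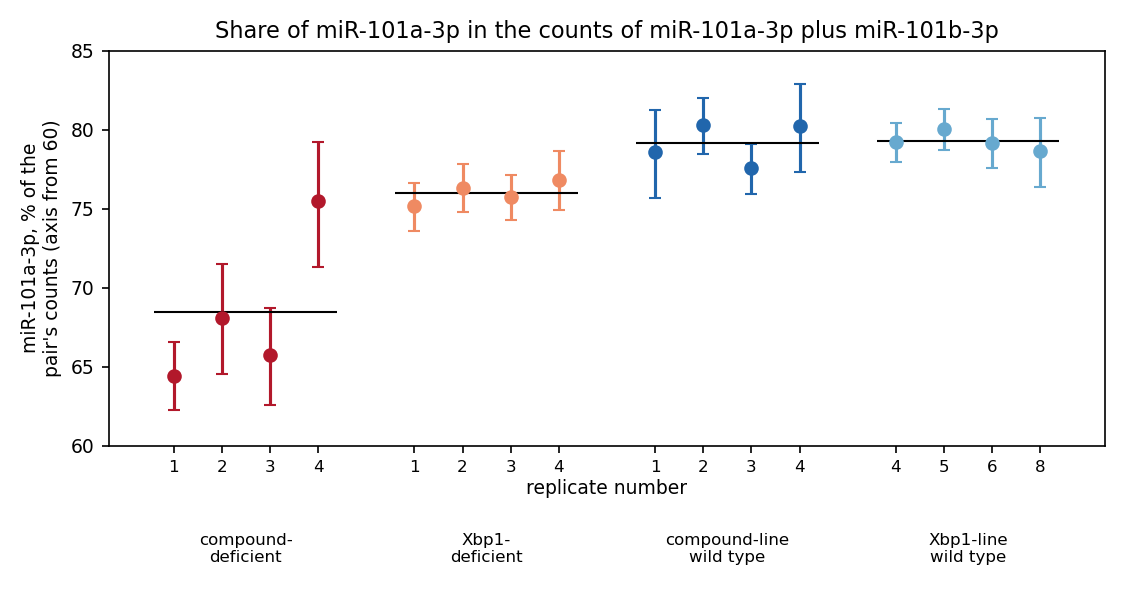
Share of miR-101a-3p in the summed raw counts of miR-101a-3p and miR-101b-3p in each library, in percent, with 95% Wilson intervals; lines mark group means and the axis starts at 60%. Compound-deficient replicates 1 to 3 sit between 64.4% and 68.1%, replicate 4 at 75.5%, and the wild-type libraries between 77.6% and 80.3%.

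Summed, the pair stood at 2010 ± 292 CPM in compound-deficient cells, 2885 ± 222 CPM in Xbp1-deficient cells, 2687 ± 495 CPM in wild-type cells of the compound line and 3507 ± 316 CPM in wild-type cells of the Xbp1 line (SD, n = 4 each). The sum took 0.199% ± 0.0412 of all microRNA counts in compound-deficient cells, 0.272% ± 0.0293 in Xbp1-deficient cells, 0.288% ± 0.0720 in the wild type of the compound line and 0.355% ± 0.0205 in that of the Xbp1 line.

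Across the 16 libraries the log2 CPM of the members had a Pearson correlation r of 0.47 and a Spearman rank correlation rho of 0.59, given without a p since the compound-deficient values were used to choose the pair. Without compound-deficient replicates 1 and 3, the 2 libraries farthest from the median of miR-101a-3p, r was 0.66. Within single groups, r was −0.14 in compound-deficient cells and 0.91 in Xbp1-deficient cells. It was 0.91 in wild-type cells of the compound line and 0.92 in those of the Xbp1 line. Each of these rests on 4 libraries. In compound-deficient cells replicate 4 was highest for miR-101a-3p, at 1807 CPM, and replicate 1 for miR-101b-3p, at 721 CPM. The points share library depth and scaling, and possibly reads.

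**Figure D5:**
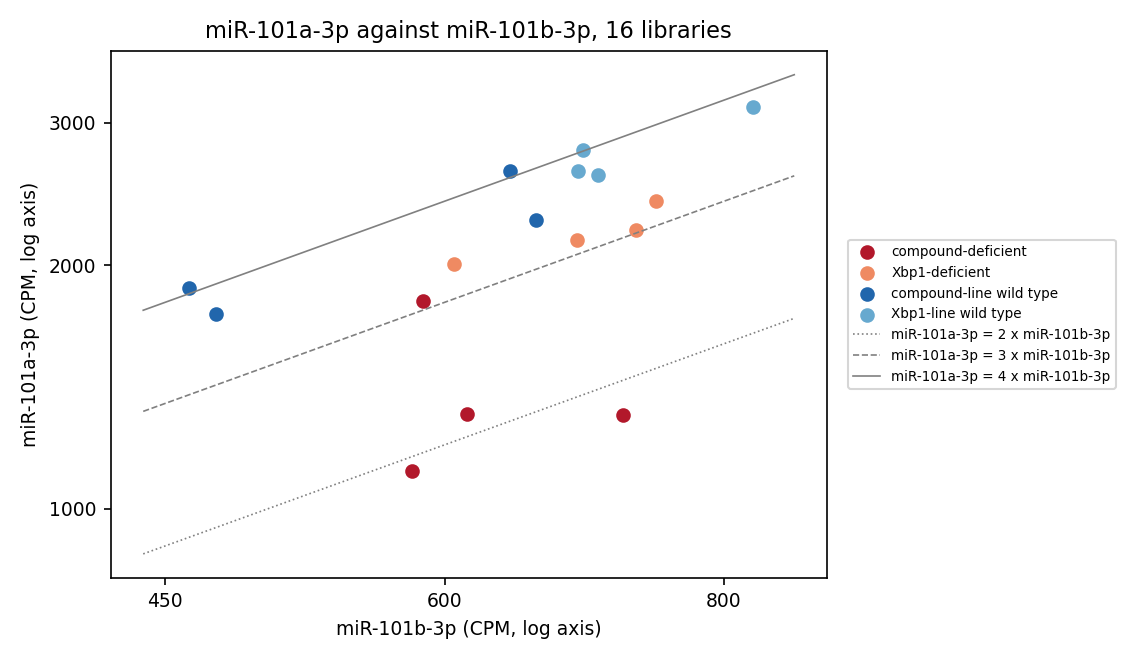
Level of miR-101a-3p against miR-101b-3p (CPM, both axes log) in the 16 libraries, with lines of constant ratio. Wild-type libraries of both lines lie near the line of 4, with ratios of 3.46 to 4.08, Xbp1-deficient libraries just above the line of 3, and compound-deficient replicates 1 to 3 around the line of 2.

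By Pearson's r of log2 CPM over the 16 libraries, given as a description without a p, miR-101b-3p ranked 31st of 254 in likeness to miR-101a-3p. Taken as deviations from the group means, which leaves out the group differences the pair was chosen on, it ranked 9th. Over the 16 libraries, the microRNAs most like miR-101a-3p were MIMAT0000526 (r of 0.89, and 0.64 within groups) and MIMAT0000531 (0.84, and 0.71 within groups). Within groups they ranked 5th and 4th. Those most like miR-101b-3p were MIMAT0004651 (0.84, and 0.76 within groups) and MIMAT0000665 (0.82, and 0.70 within groups), ranked 5th and 7th within groups. In likeness to miR-101b-3p, miR-101a-3p ranked 36th, or 30th within groups. The files do not pair these identifiers with names.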

How the data were processed

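Per the labels' protocols, small RNA libraries were made with the TruSeq kit from sorted cells, and molecular identifiers are not mentioned. Bowtie 1.1.2, limma 3.42.2, cutadapt 1.8.1, FastQC 0.11.3, GRCm38 and mm10 stand in the submitters' processing notes with no role given. The authors deposited raw counts of 853 microRNAs and log2 values of 473; from the values, the latter equal log2 of the count plus 0.5 and a constant per library. Groups follow the sample descriptions.

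edgeR 4.0.16 (R 4.3.3) fitted all 16 libraries with TMM scaling, filterByExpr (count minimum of 10) and 4 group means, and Benjamini-Hochberg adjustment ran over 255 microRNAs at 0.05; the fit was tested on simulated data. The filter kept at least 99.865% of each library's counts. log2 CPM used a prior count of 1. Alternatives were other scalings and filters, DESeq2 1.42.0, limma 3.58.1 with and without voom, thinning, a depth covariate, the pair summed, the compared groups alone, a replicate block and single libraries left out. Libraries of a group differed beyond counting noise (smallest chi-square over its degrees of freedom 15.7). The members and lists were chosen with earlier results of these data known. The naming rule took the members, look-alike sequences, the 5 microRNAs most like each member, neighbours in rank, and lists of Ezh2-targeting, neighbouring and cell type marker microRNAs. As no table used here pairs identifiers with names, the name lists matched 0 rows and 2 look-alikes per member are given by identifier; no other hairpin lies within 10 kb of Mir101a or Mir101b.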

Additional observations from a re-analysis of the deposited data

Results flagged for a closer look

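One library stood apart for a member of the pair: miR-101b-3p was at 824 CPM in Xbp1-line wild type replicate 4, against 688 to 702 CPM in the other 3 libraries of that group. Its gap on the log2 scale was 0.889 of the range of the group, above Dixon's 95% critical value for 4 samples. It was the only one of 20 groups of values checked, and chance gives about 1 in 20.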

How the results depend on the processing

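Signs of miR-101a-3p held in all 5 comparisons under every alternative that gave a value. In compound-deficient cells against wild type its log2 fold change lay between −0.85 and −0.56 with single libraries left out, and it missed the threshold at −0.68 with only the groups compared, −0.67 with the replicate block and −0.42 with the pair summed. Against Xbp1-deficient cells it lay between −0.91 and −0.67 with single libraries left out, and missed the threshold at −0.59 with total counts alone, −0.67 with only the groups compared and −0.71 with the depth covariate. miR-101b-3p passed there at −0.42 after thinning and turned to 0.045 with the depth covariate. Its sign also turned with upper-quartile scaling, at −0.12 in compound-deficient cells, 0.047 in Xbp1-deficient cells and −0.17 for the difference of changes. That scaling moved the median of all microRNAs by −0.28, 0.12 and −0.39; relative to the median, miR-101b-3p was at 0.12, −0.01 and 0.19, with the signs of TMM scaling. In Xbp1-deficient cells miR-101b-3p was 0.0048 on the deposited log2 values and 0.19 after thinning, and the difference of changes was −0.039 after thinning. With single libraries left out it lay between −0.013 and 0.18 in compound-deficient and −0.11 and 0.042 in Xbp1-deficient cells. The cause of these shifts was not tested.

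The count of all microRNAs called in compound-deficient cells against wild type was 15, but 24 with upper-quartile scaling, 9 with only the groups compared, 4 with the replicate block and 6 to 20 with single libraries left out (6 without compound-deficient replicate 3, 7 without wild-type replicate 2). The split was 9 higher and 6 lower, against 8 and 11 with total counts alone and 3 and 21 with upper-quartile scaling. Against Xbp1-deficient cells it was 19, but 30 with DESeq2, 11 with limma on the deposited values, 8 with only the groups compared, 3 with the depth covariate and 0 to 28 with single libraries left out. It was 4, 1 and 12 without compound-deficient replicates 2, 3 and 4, and 4, 0 and 9 without Xbp1-deficient replicates 1, 2 and 3; at the 0, 45 had an unadjusted p under 0.05 in edgeR. The split was 13 higher and 6 lower, against 12 and 12 with DESeq2 size factors, 14 and 1 with total counts alone, 15 and 15 with DESeq2, 10 and 17 after thinning and 4 and 22 with upper-quartile scaling. In Xbp1-deficient cells it was 6, but 15 without the filter, 17 with DESeq2, 11 with only the groups compared and 2 to 8 with single libraries left out (3 and 2 without Xbp1-deficient replicates 1 and 3, and 3 without wild-type replicate 6 or 8). The split was 1 higher and 5 lower, against 2 and 5 by DESeq2 size factors and 2 and 3 by the upper quartile; it was 7 and 10 with DESeq2, and 6 and 3 after thinning. Between the wild types it was 0, but 14 without the filter, 3 with DESeq2, 2 with only the groups compared and 0 to 2 with single libraries left out (2 without Xbp1-line replicate 6). For the difference of changes it was 0, but 3 when scaled by the upper quartile and 2 when no filter was applied.

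The correlation of the pair was 0.60 on total counts, 0.51 on the deposited log2 values and 0.66 without 2 libraries. The log2 ratio of the pair, with single libraries left out after the data were seen, differed by −0.97 to −0.71 in compound-deficient cells against wild type, −0.70 to −0.45 against Xbp1-deficient cells and −0.29 to −0.25 in Xbp1-deficient cells against wild type, and by −0.04 to 0.04 between the wild types. Whether replicate numbers pair samples could not be decided from 4 libraries a group. Same-numbered compound-deficient and wild-type deviations correlated at −0.26 to 0.26, with 1 of 4 deficient ones best with its own number. No paired analysis was possible for the Xbp1-line wild type because it shares only replicate 4 with other groups.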
